A study of Mus musculus with 8 samples.

Results

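The G2/M phase genes are 44 genes whose transcripts are made as a cell gets ready for mitosis and passes through it. They were chosen by gene symbol from the feature list of the deposited matrices, all 44 were found there under 1 identifier each, and they are 44 of 32285 features. Their levels were followed across every annotated cell type of the petrous temporal bone (PTB), the part of the skull that houses the inner ear, and of the paraflocculus/flocculus (PF/F), the lobules of the cerebellum that this bone surrounds. The study profiled nuclei of both tissues from wild-type (WT) mice and their Tbx1+/- littermates at postnatal day 5.5 (P5.5). Tbx1, which encodes a T-box transcription factor, was heterozygous in the germline and therefore in all cells of the mutant, and the strain had been bred onto a C57BL/6J background. Each of the 8 libraries pooled 5 mice, and there were 2 libraries per genotype and tissue, and the replicate number in the labels was taken as the batch. The comparisons ask which cell types of each tissue were dividing, and whether the genes of division differed between Tbx1+/- and WT within a type.

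A proliferating cell copies its DNA in S phase, then builds up cyclin B and its kinase Cdk1, condenses its chromosomes, attaches them to the spindle and divides. Much of this program is transcribed late in the cycle by the MuvB complex with B-Myb and FoxM1, and is silenced by the DREAM complex in cells that have left the cycle. In the early postnatal cerebellum, granule neuron progenitors (GNPs) of the external granular layer are known as the main dividing population, and in growing cartilage it is the immature chondrocytes.

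By role the members fall into 7 groups. The kinetochore and centromere group has 6 members (Cenpa, Cenpe, Cenpf, Hjurp, Ndc80 and Nuf2), which mark the centromere or tie it to microtubules. The spindle checkpoint has 3 (Bub1, Bub1b and Ttk), kinases or kinase-like proteins that delay anaphase until all chromosomes are attached. The chromosomal passenger complex has 3 (Aurkb, Birc5 and Cdca8), which correct faulty attachments. The cyclins, Cdk1 and protein destruction group has 8 (Ccnb1, Ccnb2, Cdk1, Cdc25c, Cdc20, Ube2c, Cdca3 and G2e3). The spindle and its motors have 14 (Aurka, Tpx2, Kif11, Kif2c, Kif20b, Nusap1, Tacc3, Ckap2, Ckap2l, Ckap5, Dlgap5, Hmmr, Psrc1 and Gtse1), cytokinesis has 3 (Anln, Ect2 and Kif23), and chromosome structure, chromatin and the nuclear envelope have 7 (Mki67, Top2a, Smc4, Hmgb2, Cdca2, Anp32e and Lbr). In the GENCODE annotation of GRCm38, 20 members overlap another annotated gene, 11 of them on the same strand, so reads of the overlap could belong to either gene. Among the members described below these are Top2a, Ckap5, Ndc80, Nusap1, Kif11, Kif20b, Anln, Smc4 and Anp32e.

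The promoters of these genes share short elements that the choice of members did not use. The letters TTTGAA, the core of the cell cycle genes homology region (CHR) to which MuvB binds, and CCAAT, the box to which NF-Y binds, were searched on both strands in RefSeq windows of GRCm38.p6 from 250 bases before to 50 after a start. The tables held a window for 38 of the 44 members. TTTGAA was present in 29 of their 41 windows (70.7%) and in 17.9% of all 32851 windows, CCAAT in 78.0% against 37.4%, and both together in 61.0% against 6.95%. Among 34 windows of S phase genes, 17.6% held TTTGAA and 67.6% CCAAT, and among 47 windows of other mitosis genes the shares were 57.4% and 66.0%. A match is only a description of the letters in the window. The 120 bases before the RefSeq start are printed for 5 members that recur below, 5′ to 3′ on the gene's strand, with TTTGAA or its reverse complement and CCAAT or its reverse complement in capitals. Cdk1 (chr10:69352913-69353032, minus strand) and Kif11 (chr19:37376262-37376381, plus strand) carry both elements, Mki67 (chr7:135716380-135716499, minus strand) carries only TTTGAA here and Cenpf (chr1:189688087-189688206, minus strand) only CCAAT, and Ckap5 (chr2:91526642-91526761, plus strand), the member that differed least between GNPs and Purkinje cells, also carries both.
Cdk1: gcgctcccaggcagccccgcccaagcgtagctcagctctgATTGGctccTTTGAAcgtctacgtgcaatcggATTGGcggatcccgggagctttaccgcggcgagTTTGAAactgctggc
Kif11: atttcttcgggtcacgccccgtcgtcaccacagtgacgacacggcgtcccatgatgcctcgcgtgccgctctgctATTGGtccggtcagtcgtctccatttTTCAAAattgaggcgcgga
Mki67: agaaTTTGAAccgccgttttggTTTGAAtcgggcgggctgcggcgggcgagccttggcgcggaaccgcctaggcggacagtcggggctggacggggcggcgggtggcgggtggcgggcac
Cenpf: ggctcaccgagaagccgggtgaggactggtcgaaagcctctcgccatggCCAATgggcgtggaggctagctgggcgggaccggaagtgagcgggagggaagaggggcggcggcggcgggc
Ckap5: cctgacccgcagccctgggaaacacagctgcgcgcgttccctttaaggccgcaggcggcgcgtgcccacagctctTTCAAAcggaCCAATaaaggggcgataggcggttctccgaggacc

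The annotation placed 31076 PTB nuclei in 15 types and 48237 PF/F nuclei in 16 types. The PTB types cover only connective tissue, chondrocytes, osteoblasts and osteoclasts. The study's wider bone atlas also held immune cells and neurons, which carry no type here, so PTB totals below describe this part. Per library, 4191 to 9183 further PTB barcodes with at least 1000 genes carried no annotation, beside 689 to 1649 in the PF/F. Libraries held 5981 to 9977 annotated nuclei in the PTB, with a median of 3853 to 4758 UMIs (unique molecules) per nucleus, and 9153 to 13835 in the PF/F, with a median of 2610 to 3503. Between 109 and 232 annotated barcodes per library also occurred in another library. For each type the UMIs of a library were summed over its nuclei and expressed as counts per 1000000 UMIs of those nuclei (CPM), and the list level is the summed CPM of the 44 members. Types were clustered by the authors on the same nuclei, so differences between types are given as values with no test, and means over 4 libraries span both genotypes. Purkinje cells, which are postmitotic, were the background type in the PF/F, since free RNA and misassigned nuclei can give UMIs to every type. Osteoclasts were chosen for the PTB, but that type turned out to hold nuclei with many members itself. Matured osteoblasts/osteocytes are therefore given beside it for summed lists and counts per nucleus.

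In the PF/F the GNPs stood far above every other tested type, with a list level of 6175 ± 370 CPM (SD, n = 4). Their libraries ran from 5847 to 6553 CPM, and no library of another tested type reached that range. Progenitors of GABAergic interneurons followed with 4189 ± 398 CPM, then immune cells with 2855 ± 477, oligodendrocytes with 2650 ± 390, astroglia with 2107 ± 273, early rhombic lip cells with 2052 ± 183 and meningeal cells with 1931 ± 350. Unipolar brush cells, differentiated granule neurons and differentiated interneurons lay between 1184 and 1270 CPM. Purkinje cells had 731 ± 173 CPM, GABAergic interneurons 656 ± 74.7 and the type named Progenitors 643 ± 205. Thus the type annotated only as Progenitors sat at the background, while GNPs exceeded Purkinje cells by a factor of 8.72 ± 1.55. Purkinje cells, GABAergic interneurons and Progenitors were also the types with the deepest nuclei. Library medians were 5653 to 8533 UMIs in Purkinje cells against 2293.5 to 2966 in GNPs, and the part of depth in these levels was not tested. Pericytes (3988 ± 1362 CPM) and endothelial cells (3118 ± 1183 CPM) also had high values, but from as few as 12 and 15 nuclei in a library, and were not tested. Of 15 pairs of neighbours in this order, 14 had overlapping libraries, and the gap between GNPs and interneuron progenitors was the exception. GNPs held 15.6% of the annotated UMIs of the PF/F and 42.3% of its list UMIs, whereas differentiated granule neurons held 35.9% and 18.5%.

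No annotated type of the PTB stood apart in the same way. CP2, one of 6 subtypes of chondrocyte progenitors, had 2066 ± 168 CPM, the hypertrophic chondrocyte/osteoblast type 1975 ± 144, the connective tissue subtype CT3 1925 ± 196 and the matured chondrocytes 1869 ± 653. These 4 types overlapped throughout. CT1 (1339 ± 188 CPM), CP1 (1237 ± 148) and CT2 (1137 ± 185) came next. Osteoclasts had 986 ± 177 CPM, osteoblasts 982 ± 69.9, and CP4, CP3, CT4, CP6 and CP5 between 796 and 961. Matured osteoblasts/osteocytes were lowest at 743 ± 117 CPM. Between neighbours only CP4 and CP3 did not overlap (13 of 14 pairs did), so the order within the PTB is loose. CP2 exceeded osteoclasts by a factor of 2.17 ± 0.587 and matured osteoblasts by 2.83. Among the types annotated as chondrocyte progenitors, CP2 and CP1 thus had the higher mean list levels, while CP3 to CP6 lay at or below osteoclasts but, on average, above matured osteoblasts/osteocytes.

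**Figure D1:**
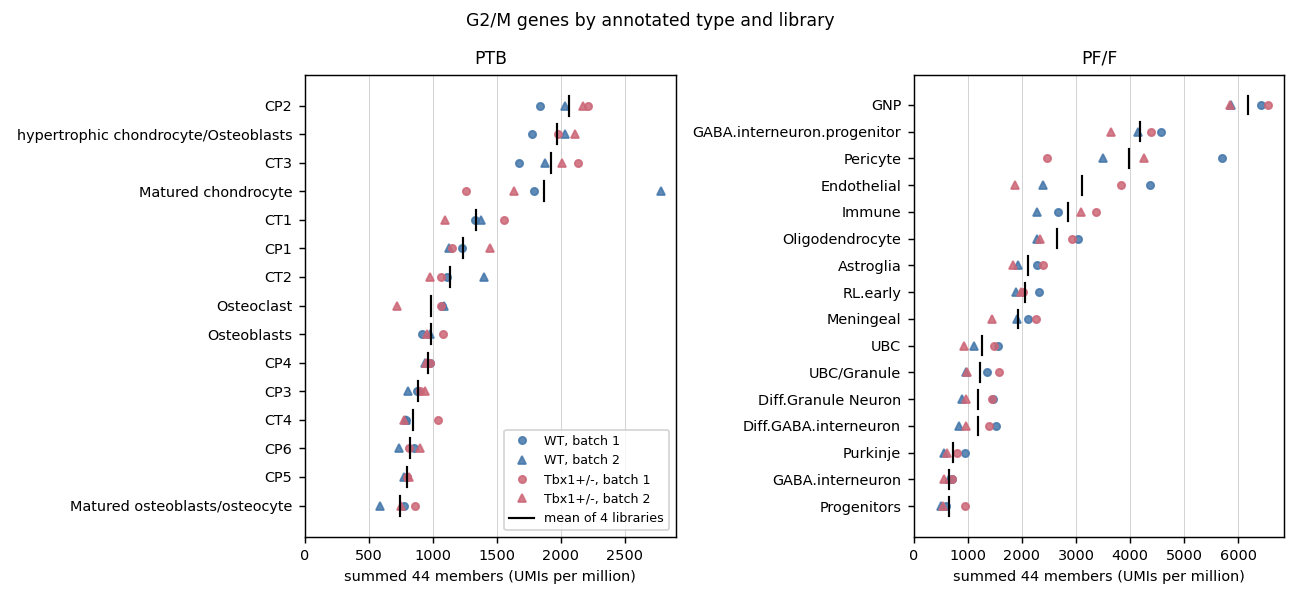
Summed CPM of the 44 G2/M genes (x axis) in each annotated type of the PTB and PF/F, with 1 point per library coloured by genotype and a bar at the mean of the 4 libraries. GNPs at 6175 CPM lie clear of all other tested types of the PF/F, whereas the 4 highest types of the PTB overlap near 2000 CPM.

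The labels of the highest types were checked against marker genes. GNPs, immune cells, oligodendrocytes, Purkinje cells, osteoclasts and matured chondrocytes each had the highest summed level of their own markers in their tissue (723, 1393, 1123, 3269, 7077 and 5140 CPM). Interneuron progenitors ranked 3 for the markers of GABAergic interneurons and their progenitors (254 CPM), and held more UMIs of astroglia markers (835 CPM). The PTB progenitor types were less distinct: CP2 ranked 4 for chondrocyte markers (1247 CPM) and 6 for osteoblast markers (4725 CPM), CP1 ranked 7 for chondrocyte markers (919 CPM) but 1 for osteoblast markers (9875 CPM), which goes against its label, CT3 ranked 7 for connective tissue markers (1027 CPM), and the hypertrophic chondrocyte/osteoblast type ranked 4 for hypertrophic markers (1989 CPM) and 2 for osteoblast markers (7832 CPM). Matured chondrocytes also held the most erythroid UMIs, at 797 and 9199 CPM in WT and 677 and 856 in Tbx1+/-, with WT of batch 2 far above the rest.

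A level can come from a few nuclei with much mitotic RNA or from many with little, so members were also counted per nucleus after each nucleus was thinned to 2000 UMIs. A nucleus with at least 5 of the 44 members detected is called mitotic-gene positive here. Thinning left out 1054 PTB nuclei (3.39%) and 6895 PF/F nuclei (14.3%) that were shallower. Among them were 144 of 587 matured chondrocytes and 2244 of 9404 GNPs, so the shares of these types rest on their deeper nuclei. Among GNPs 69.1% ± 4.99 (SD, n = 4) of nuclei were positive, in WT 70.7% and 65.0% and in Tbx1+/- 75.5% and 65.2%. Interneuron progenitors had 49.6% ± 4.94, immune cells 33.1% ± 6.38 and oligodendrocytes 28.2% ± 4.72. Early rhombic lip cells had 19.3% and astroglia 18.7%, while differentiated granule neurons had 6.74%. Purkinje cells, the background, had 2.86% ± 1.98, so GABAergic interneurons (2.22%) and Progenitors (2.50%) were at the background. Without thinning the Purkinje share was 21.9%, and Purkinje nuclei were deep, with a median of 6891.5 UMIs among those that were not positive. In all, 9348 of 41342 PF/F nuclei (22.6%) were positive, and 4977 of them (53.2%) were GNPs.

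In the PTB 2445 of 30022 annotated nuclei (8.14%) were positive. The share was 15.7% ± 1.88 in CT3, 15.5% ± 1.62 in the hypertrophic chondrocyte/osteoblast type, 15.2% ± 10.1 in matured chondrocytes and 15.0% ± 2.28 in CP2. Osteoclasts had 8.95% ± 2.44 and matured osteoblasts/osteocytes 1.64% ± 0.631. Osteoclasts were thus no floor free of mitotic genes: 3.29% of their nuclei had 10 or more members, and whether these were dividing osteoclasts, doublets or misassigned nuclei was not tested. CT1 (9.01%), CT2 (6.09%) and CP1 (5.96%) were near or below osteoclasts and above matured osteoblasts/osteocytes. The hypertrophic type contributed 643 positive nuclei (26.3% of those of the PTB) and CP2 524 (21.4%).

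**Figure D2:**
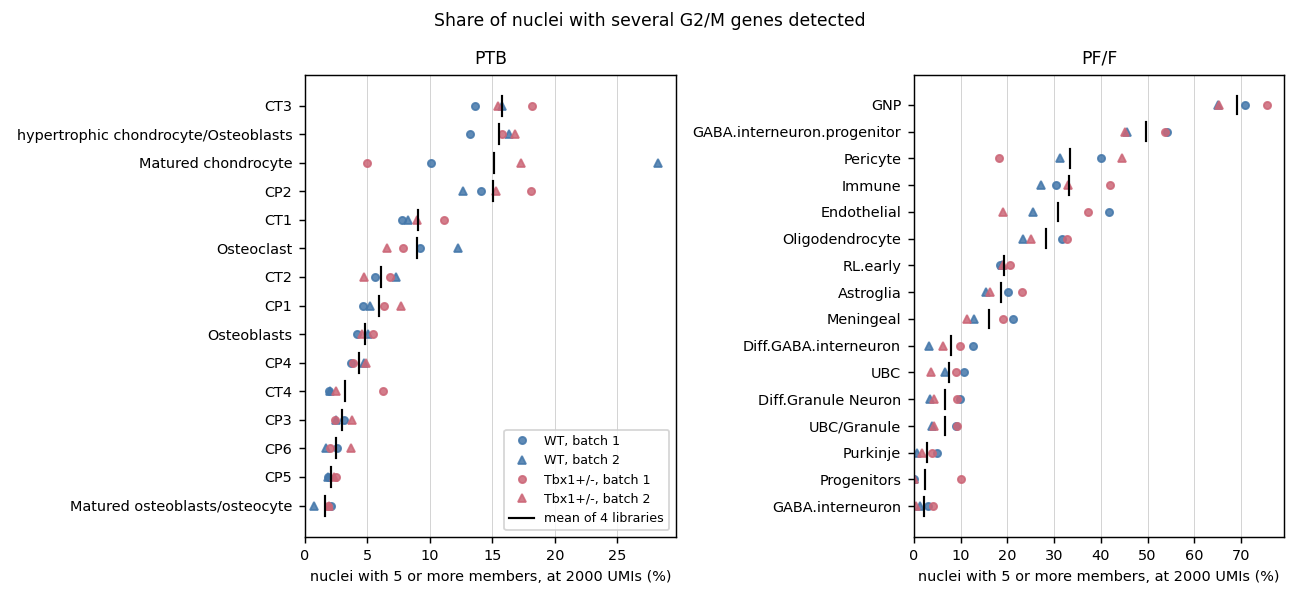
Percent of nuclei with at least 5 of the 44 members detected at 2000 UMIs (x axis) for each type, with 1 point per library and a bar at the mean. GNPs reach 69.1% and interneuron progenitors 49.6%, against 2.86% in Purkinje cells, and no PTB type has a mean above 15.7%.

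The distribution within a type differed as much as the mean. In GNPs the median nucleus had 8 members, 45.03% of nuclei had 10 or more and 1.98% had none, and positive nuclei held 93.1% of the list UMIs of the type. In CP2 the median was 1 member, 8.67% of nuclei had 10 or more and 21.0% had none, yet positive nuclei held 66.0% of the list UMIs. Purkinje nuclei also had a median of 1 member, but 0.387% had 10 or more and positive nuclei held only 15.2% of the list UMIs. In immune cells that share was 77.2%, in CT3 66.7%, in matured chondrocytes 63.3%, in osteoclasts 46.8% and in matured osteoblasts/osteocytes 12.1%. CP2 thus held a minority of nuclei with many members among nuclei with few, whereas most GNP nuclei carried several. Positive nuclei were deeper before thinning in most types, among them CP1 (median 7336 against 4150 UMIs), CP4 (6762 against 4199), osteoblasts (6939 against 4705), CP2 (5362.5 against 4032) and GNPs (2965 against 2667), and shallower in osteoclasts (4531.5 against 6004), matured chondrocytes and the type named Progenitors. No doublet caller was run. Markers were compared on counts that were not thinned, between nuclei with at least 5 members and nuclei with none. These are partly other nuclei than those above and are also split by depth. The markers were those of the own type, except in CP2, annotated as chondrocyte progenitors, where connective tissue markers were used. Marker levels were lower in the nuclei with members in 4 of 4 libraries for matured chondrocytes (mean 4040 CPM over 145 nuclei against 5858 over 58), immune cells (1189 over 142 against 2130 over 16), oligodendrocytes (1129 against 1528) and, by connective tissue markers, CP2 (1267 over 944 against 1529 over 254). In 3 of 4 libraries they were lower for osteoclasts (6041 against 7746 CPM), CT3 by connective tissue markers (1009 against 1031) and GNPs (715 against 748). The hypertrophic type by osteoblast markers (7651 against 7298 CPM) and Purkinje cells (3164 against 3076) were lower in 2 libraries, and interneuron progenitors (270 against 212) in 1. The part of depth in these values was not tested.

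The members did not contribute alike. In the PF/F 43 of 44 were highest in GNPs, and all 44 were higher there than in Purkinje cells in each of the 4 libraries. The median ratio of GNPs to Purkinje cells was 17.8, with 31 members above 10-fold and 43 above 4-fold, where 10.5% of all 16080 genes of at least 1 CPM exceeded 4-fold. The ratios were largest for Dlgap5, which stabilizes spindle microtubules (81.2 ± 13.4 against 2.70 ± 1.28 CPM, 30.1-fold), Kif23, a motor of the central spindle (28.3-fold), Anln, a scaffold of the contractile ring (27.4-fold), Kif20b, a kinesin of late mitosis (25.6-fold), and Tacc3, which crosslinks spindle microtubules (25.6-fold). By role, cytokinesis had the highest median ratio (27.4), followed by spindle and motors (20.3), spindle checkpoint (18.5), kinetochore (17.7), chromosome structure (13.0), passenger complex (9.13), and cyclins and protein destruction (7.85).

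At the other end was Ckap5, a microtubule polymerase that cells also use outside mitosis. It had 365 ± 17.7 CPM in GNPs and 234 ± 4.86 in Purkinje cells, a ratio of 1.56, and was highest in early rhombic lip cells (400 CPM). Hmgb2, a chromatin protein, had a ratio of 4.32, the ubiquitin-conjugating enzyme Ube2c 4.47, the histone chaperone Anp32e 5.37 and Cdc20, the activator of the anaphase-promoting complex, 6.06. Ckap5 alone held 32.1% of the list CPM in Purkinje cells and 5.90% in GNPs. Without the 3 members with the most UMIs in the tissue, the list in Purkinje cells was 363 CPM and the ratio of GNPs to Purkinje cells became 13.8.

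In the PTB 16 members were highest in CP2, 11 in CT3, 11 in matured chondrocytes, 5 in the hypertrophic type and 1, the cyclin Ccnb2, in CT4, while 26 were lowest in matured osteoblasts/osteocytes. The median ratio of CP2 to osteoclasts was 2.32, with 31 members above 2-fold, where 22.6% of all 16646 genes were, and 41 members were higher in all 4 libraries. Ckap2, which binds spindle microtubules, had the largest ratio (43.1 ± 5.79 against 7.90 ± 2.90 CPM, 5.46-fold). It was followed by Psrc1, another spindle protein (4.52-fold), the checkpoint kinase Ttk (4.01-fold), the spindle protein Ckap2l (3.56-fold) and Kif11, the motor that separates the spindle poles (3.51-fold). Hmgb2 (1.32-fold), the condensin subunit Smc4 (1.33-fold), Ckap5 (1.38-fold), the checkpoint protein Bub1b (1.40-fold) and Ube2c (1.47-fold) separated these types least. Hmgb2, Ckap5 and Ube2c were thus among the 5 lowest in both tissues. The member and role ratios of the PTB are to osteoclasts only, a type that itself held nuclei with many members. Ratios of members to matured osteoblasts/osteocytes were not taken. Spindle and passenger complex members had the higher median ratios (2.81 and 2.88), and cyclins (1.85) and chromosome structure (1.82) the lower.

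**Figure D3:**
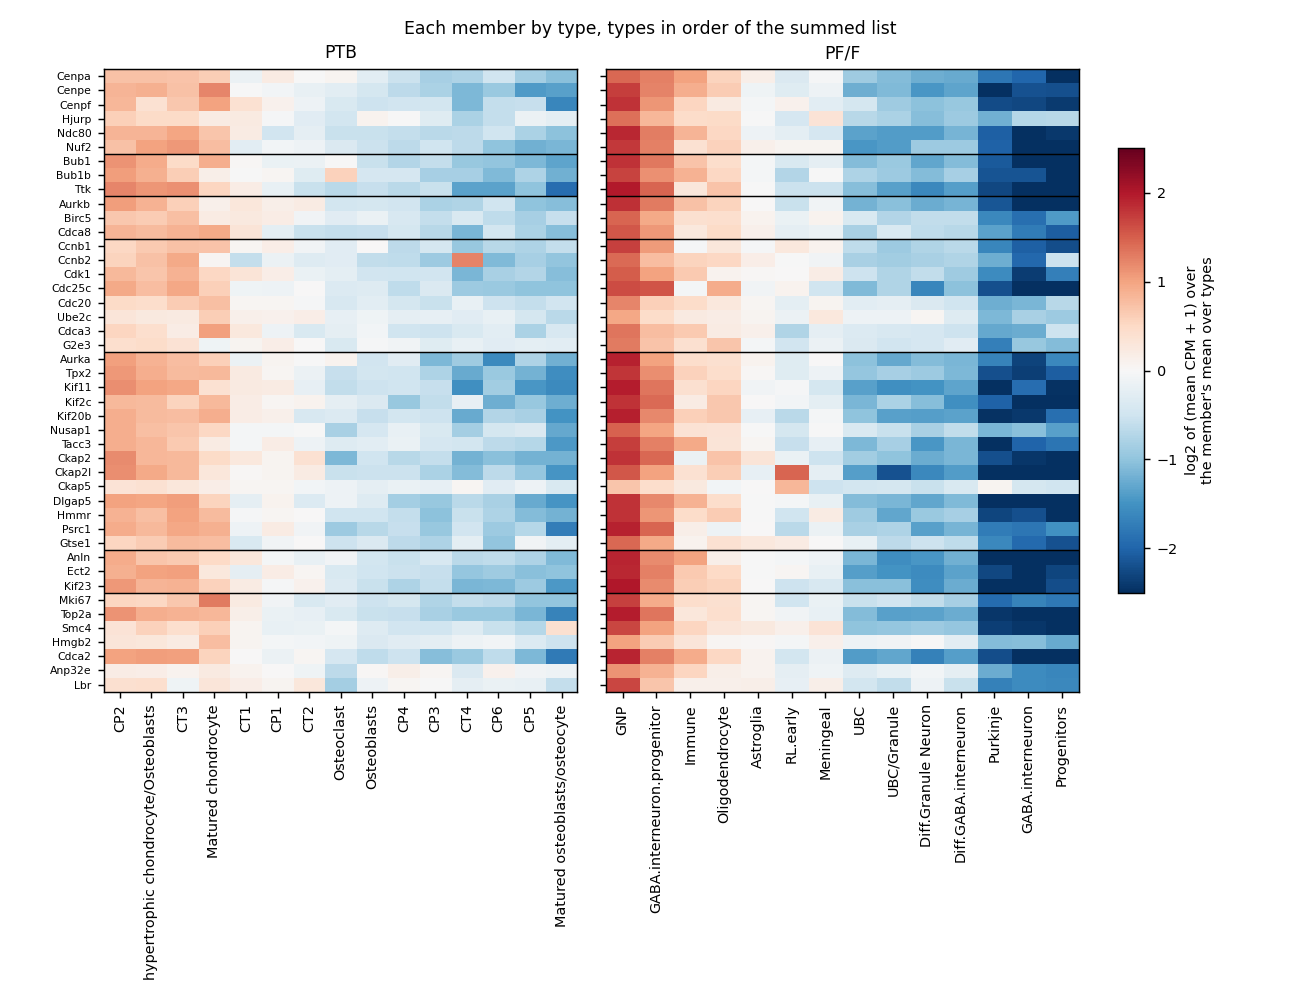
Each row is a member, ordered by role with lines between roles, and each column a type; colour gives the log2 of a member's mean CPM plus 1 in the type over its mean across types. In the PF/F 43 of 44 members are highest in the GNP column, while in the PTB the high values spread over CP2, CT3, the hypertrophic type and matured chondrocytes.

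Across GNPs, CP2 and the background types, the 6 best known members followed the order of the summed list. Top2a, the topoisomerase that untangles sister chromatids, had 728 ± 94.5 CPM in GNPs, 192 ± 13.9 in CP2, 67.3 ± 13.5 in osteoclasts and 33.7 ± 20.4 in Purkinje cells. Mki67, the proliferation marker that coats mitotic chromosomes, had 252 ± 52.8, 79.9 ± 10.4, 44.7 ± 5.83 and 19.5 ± 9.45 CPM in the same types. Cenpf, a kinetochore protein, had 271 ± 22.2, 60.4 ± 4.48, 25.5 ± 7.59 and 15.5 ± 9.49. Cdk1, the mitotic kinase, had 95 ± 6.93, 33.1 ± 8.19, 15.4 ± 4.09 and 10.3 ± 1.5. Ccnb1, its cyclin, had 72.9 ± 5.65, 13.2 ± 1.32, 7.10 ± 2.69 and 6.30 ± 2.86, and Aurkb, the passenger complex kinase, had 72.0 ± 6.86, 14.8 ± 3.8, 4.55 ± 1.01 and 3.70 ± 3.12. All 6 were highest in GNPs of these 4 types and were higher in CP2 than in either background type. Within the PTB only Top2a and Aurkb were highest in CP2. Mki67 (137 CPM) and Cenpf (68.3) were highest in matured chondrocytes, and Cdk1 (34.3) and Ccnb1 (15.5) in CT3.

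Across types the members varied together. Over the 14 tested PF/F types the correlation of a member with the sum of the others, on log2 mean CPM plus 1, had a median r of 0.975 and was lowest for Ckap5 (0.641). Over the 15 PTB types the median was 0.948 and the lowest 0.493 (Anp32e). These are descriptions, since the types share libraries and depth. Outside the list, the genes most like it over the 14 PF/F types were Knl1, a kinetochore scaffold (r = 0.994), Knstrn (0.993), Zgrf1 (0.993), Racgap1, a regulator of cytokinesis (0.992), and Brca1, a DNA repair factor (0.991). In the 15 PTB types they were again Knl1 (0.991), then Clspn, which acts in the replication checkpoint (0.980), the mitotic kinesin Kif15 (0.979), Ankle1 (0.976) and Efcab11 (0.973).

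The S phase list and the list of other mitosis genes gave the same leading types, and a list of cell cycle brakes and D cyclins shared them in part. The 43 S phase genes summed to 4053 CPM in GNPs, 2916 in interneuron progenitors and 665 in Purkinje cells, and in the PTB to 1528 in CP2, 1423 in the hypertrophic type, 1409 in CT3, 1309 in matured chondrocytes, 860 in osteoclasts and 521 in matured osteoblasts/osteocytes. The 50 other mitosis genes reached 5456 CPM in GNPs, 3867 in interneuron progenitors, 528 in Purkinje cells, 1877 in CP2 and 407 in matured osteoblasts/osteocytes. Among the tested PF/F types, the list of 15 cell cycle brakes and D cyclins was highest in interneuron progenitors (1548 CPM), GNPs (1411) and immune cells (1017). These types also led the G2/M list, and Purkinje cells had 417 CPM. In the PTB the list of brakes and D cyclins was highest in matured chondrocytes (1162 CPM), the hypertrophic type (1050), CT4 (1028) and matured osteoblasts/osteocytes (997), with CP2 at 875 and CT3 at 758.

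Genotypes were then compared within each type with edgeR's quasi-likelihood test on the library sums, without a batch term. A call was set at a Benjamini-Hochberg adjusted p under 0.05 and a change over 1.5-fold. Of 1040 tests of members over 29 types none was called, beside 1 of 348721 tests over all genes (0.000287%), and the lowest adjusted p of a member was 0.999 (edgeR). At an unadjusted p under 0.05 there were 36 member tests (3.46%), against 1.58% of all tests. In the PTB 29 of 552 member tests (5.25%) were under that limit, 14 higher and 15 lower in Tbx1+/-, against 1.81% of all genes, and in the PF/F 7 of 488 (1.43%) against 1.32%. DESeq2 called no member either, and 6 of its member tests (0.577%) had an unadjusted p under 0.05, against 0.204% of all its tests. With the batch as a block edgeR called 2 members, Cenpf and Mki67 in matured chondrocytes. In that fit 82 of 1040 member tests (7.88%) had an unadjusted p under 0.05, against 4.13% of all tests. Summed over all annotated nuclei of a tissue, none of 44 members was called in the PTB or the PF/F, and none of all genes (0% in each). In these sums, as in sums within a type, fewer dividing cells and less RNA per cell cannot be told apart. Over the annotated nuclei of the PTB the list was 1235 and 1286 CPM in WT and 1354 and 1313 in Tbx1+/-. Over those of the PF/F it was 2579 and 1987 in WT and 2724 and 1872 in Tbx1+/-. In the PTB 25 of 44 members were higher in Tbx1+/- in both batches (background 23.9%), and in the PF/F 7 of 44 were lower in both (background 27.7%). With 2 libraries per genotype, p-values measure only the spread between these libraries. The members belong to 1 program and varied together across types, so they are not independent of one another. Counts of members beside a background of all genes, here and below, are therefore descriptions.

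Batch moved the list throughout the PF/F. It was lower in batch 2 than in batch 1 in both genotypes in all 14 tested types, by ratios of 0.549 to 0.987, and the PF/F libraries of batch 2 were the deeper ones, with a median of 3405 and 3503 UMIs against 2610 and 2902. The part of depth in that difference was not tested. In immune cells the genotype ratios (1.27 and 1.35) lay further from 1 than the batch ratio in WT (0.860). In the PTB 3 of 15 types were lower and 2 higher in batch 2 in both genotypes. Differences of the list are therefore given within batch below, as the log2 of Tbx1+/- over WT in batch 1 and then in batch 2, and members by their value in each library and the fitted change. Fitted changes and their SE come from the fit without a batch term unless another fit is named. By sign of the summed list, 7 PTB types were higher in Tbx1+/- in both batches, 3 lower and 5 of opposite sign, and in the PF/F 3 were higher, 2 lower and 9 of opposite sign.

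Tbx1 itself, reported as a check of the labels, was lower in Tbx1+/- in both batches of the PTB, with 38.9 and 39.4 CPM in WT and 26.3 and 35.7 in Tbx1+/- (log2 change -0.34, SE 0.17). In CP2 it was 55.1 and 52.6 against 36.9 and 33.4 CPM, with no overlap, but its adjusted p was 1.00 (edgeR). In the PF/F there were only 4 to 13 Tbx1 UMIs per library, too few for such a check.

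CP2, the highest PTB type, had a list of 1842 and 2033 CPM in WT and 2210 and 2178 in Tbx1+/-, log2 0.26 and 0.10 within batches, with no overlap of the genotypes. The median difference of its 44 members was 0.21, where that of all genes was 0.00, and 26 members were higher in Tbx1+/- in both batches and 1 lower, G2e3, against a background of 23.6% higher. Cdk1 was 29.4 and 23.2 CPM in WT and 39.9 and 39.7 in Tbx1+/- (log2 change 0.60, SE 0.18). Tacc3 was 27.8 and 33.7 against 41.2 and 41.4 CPM (0.44, SE 0.17), and Cdc25c, the phosphatase that activates Cdk1, was 10.5 and 12.1 against 15.8 and 17.4 CPM (0.57, SE 0.23). These 3 did not overlap between genotypes. In CP2 19 of 44 members were higher and 0 lower without overlap, beside 1777 and 2041 of 14552 genes. Top2a was 175 and 189 against 196 and 208 CPM (0.16, SE 0.12), Mki67 80.1 and 68.0 against 93.4 and 78.3 (0.22, SE 0.15) and Cenpf 53.8 and 62.0 against 61.8 and 63.9 (0.13, SE 0.14). Ccnb1 (12.5 and 14.3 against 14.2 and 11.6 CPM) and Aurkb (14.5 and 14.6 against 10.4 and 19.7) overlapped fully. The members higher in both batches came from all roles, with 9 of 14 in spindle and motors, 5 of 8 in cyclins and protein destruction and 4 of 6 in the kinetochore group. Other mitosis genes had a median log2 difference of 0.25 in CP2 and S phase genes 0.11. The 3 endothelial markers in CP2 were 54.6 and 48.0 CPM in WT and 64.4 and 64.2 in Tbx1+/-, and their part in the result was not tested. None of the member differences passed the test.

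CT3 and the hypertrophic chondrocyte/osteoblast type differed in the same direction as CP2. CT3 had 1678 and 1877 CPM in WT and 2137 and 2009 in Tbx1+/- (log2 0.35 and 0.10), with 21 of 42 tested members higher in both batches (background 27.4%) and 3 lower. Without the 8% of nuclei with the most UMIs the mean difference in CT3 was -0.0038 (0.08 and -0.09), so the sign of batch 2 turned. CT3 also held erythroid UMIs at 2014 and 360 CPM in WT and 457 and 298 in Tbx1+/- and endothelial markers at 60.0 and 63.0 against 91.7 and 78.7, and their part in the result was not tested. Ect2, which activates the contractile ring, had 33.1 and 37.4 CPM in WT and 58.9 and 64.2 in Tbx1+/- (0.78, SE 0.23). Hmgb2 had 66.1 and 50.6 against 90.7 and 92.2 CPM (0.64, SE 0.20), and Cdc25c 8.70 and 9.70 against 20.3 and 18.1 (1.03, SE 0.37). Mki67 was 76.5 and 75.5 against 106 and 94.96 CPM (0.38, SE 0.18), whereas Top2a was 135 and 196 against 152 and 162 (-0.10, SE 0.20). The S phase genes had a median difference of -0.06 in CT3.

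The hypertrophic type had a list of 1775 and 2033 CPM in WT and 1981 and 2110 in Tbx1+/- (log2 0.16 and 0.05), and the genotypes overlapped. Without WT replicate 1 the mean difference was 0.0086. Of 44 members 24 were higher in both batches (background 26.7%) and 4 lower, with all 8 members of the cyclin group and all 3 of the spindle checkpoint among the higher ones, and 6 of 14 in spindle and motors. Gtse1, a microtubule-binding regulator of p53, had 2.92 and 2.64 CPM in WT and 5.47 and 4.90 in Tbx1+/- (0.87, SE 0.35). Cdk1 had 23.6 and 28.5 against 32.5 and 36.4 CPM (0.40, SE 0.17) and Ccnb1 12.1 and 12.1 against 15.1 and 18.8 (0.47, SE 0.22). Mki67 differed little, at 79.5 and 70.9 against 82.7 and 81.3 CPM (0.11, SE 0.12), and Aurkb was 13.7 and 14.0 against 11.6 and 13.1 (-0.18, SE 0.21).

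Matured chondrocytes went the other way. Their list was 1790 and 2789 CPM in WT and 1259 and 1638 in Tbx1+/-, log2 -0.51 and -0.77 within batches, on 147 and 138 nuclei in WT and 48 and 254 in Tbx1+/-. The Tbx1+/- library of batch 1 held only 210 list UMIs, so its values are the least precise of the 4. Only 28 members passed the filter on low counts here. Of them 21 were lower in both batches, against a background of 26.2%, and 1, Cenpa, the histone variant of centromeres, was higher, and their median log2 difference was -0.62 where that of all genes was 0.00. The filter, about 22.4 CPM in at least 2 libraries, was not blind to genotype: 11 of the 28 reached it in both WT but not in both Tbx1+/- libraries, 5 of these in no Tbx1+/- library, and 0 the other way round, so counts and medians over genes that passed are descriptions here and no support. Of the 14 members that reached it in all 4 libraries 9 were lower in both batches. Under a limit of 10 CPM on the mean of all 4 libraries, chosen after the data were seen, 31 of 42 members were lower in both batches (background 26.9%) and 1 higher. The summed list uses all 44 members and no filter. By role, among the 28 that passed the filter, the lower ones were 5 of 7 in chromosome structure and 5 of 8 in spindle and motors. In the kinetochore group they were 4 of 5 and in cytokinesis 3 of 3. All 3 cytokinesis members reached the filter in both WT but not in both Tbx1+/- libraries, so these counts are descriptions too. Other mitosis genes had a median of -0.51 with 12 of 25 lower in both batches, S phase genes -0.51 with 15 of 23 lower and 0 higher, and cell cycle brakes and D cyclins 0.16.

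Among the named members Cenpf had 66.8 and 129 CPM in WT and 30.0 and 47.9 in Tbx1+/- (log2 change -1.13, SE 0.38), with no overlap. Ndc80, which binds microtubules at the kinetochore, had 25.0 and 36.4 against 18.0 and 5.84 CPM (-1.83, SE 0.66), and the checkpoint kinase Bub1 29.2 and 38.8 against 12.0 and 14.0 (-1.28, SE 0.52). These rest on 12 and 15 UMIs against 3 and 5 for Ndc80 and on 14 and 16 against 2 and 12 for Bub1. Both genes, like Cdk1, passed the filter through the WT libraries alone, so their changes are given as values only. Mki67 had 117 and 265 against 47.9 and 119 CPM (-0.96, SE 0.41), so that WT of batch 1 and Tbx1+/- of batch 2 overlapped although both batches differed by about the same amount (-1.29 and -1.15). Top2a had 131 and 257 against 102 and 137 CPM (-0.62, SE 0.34) and Cdk1 27.1 and 46.1 against 12.0 and 21.0 (-0.91, SE 0.51). Leaving out 1 library moved these changes between -1.66 and -0.62 for Cenpf, -2.31 and -0.74 for Ndc80, -1.96 and -0.27 for Mki67, -1.01 and -0.07 for Top2a and -1.55 and -0.50 for Cdk1, with the smallest size without WT replicate 2 for all but Ndc80, where it was without Tbx1+/- replicate 2. Ccnb1 and Aurkb had at most 11 and 5 UMIs in a library and were not tested. When batch entered the edgeR fit as a block, Cenpf (log2 change -1.34, SE 0.33, adjusted p 0.0358) and Mki67 (-1.16, SE 0.29, adjusted p 0.0358) were called lower. That was 2 of 28 members, where 0.233% of all genes of the type were called. In the same fit 14 of the 28 had an unadjusted p under 0.05, all lower, against 5.78% of all genes. The filter that passed these 28 was not blind to genotype, so the 14 are a description and no support. Cenpf and Mki67 here were the only 2 of 1040 member tests called with the batch term, where 0.0376% of all tests were. Without WT replicate 1 the same 2 genes were called without the batch term (adjusted p 0.0455 each, edgeR; background 0.325%), and without WT replicate 2, the library with the highest list, the mean difference of the list shrank from -0.64 to -0.32.

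In the per-nucleus count the matured chondrocytes had 10.1% positive nuclei (12 of 119, 95% Wilson interval 5.86 to 16.8) and 28.3% (28 of 99, 20.4 to 37.8) in WT and 5.00% (2 of 40, 1.38 to 16.5) and 17.3% (32 of 185, 12.5 to 23.4) in Tbx1+/-. In each batch Tbx1+/- was lower, but the intervals, which cover counting error only, overlap within both batches. The WT library of batch 2 that led here also held the high erythroid level and the lowest level of the cartilage collagen Col2a1 (2148 CPM against 5217 in the other WT library and 3902 and 3390 in Tbx1+/-). Other marker sets moved with the list in this type. The GNP set of 3 genes, 2 of them at 0, was 129 and 265 CPM in WT and 77.9 and 153 in Tbx1+/- (log2 -0.73 and -0.79). The Purkinje set of 3 genes, 1 of them at 0, was 584 and 818 against 438 and 548 (-0.42 and -0.58). Over all annotated nuclei the Purkinje set was 1027 to 1211 CPM in PTB libraries and 405 to 420 in the PF/F. The GNP set was 195 to 232 CPM in PTB libraries and 191 to 239 in the PF/F. Neither set can therefore be read as cerebellar RNA here. Endothelial markers were higher, at 31.3 and 51.0 against 47.9 and 78.3 CPM, as were pericyte markers, at 37.6 and 14.6 against 53.9 and 39.7, and their part in the result was not tested. Haemoglobin-rich nuclei, with 10 or more haemoglobin UMIs, numbered 1 and 5 in WT and 1 and 6 in Tbx1+/-. In a check that was not planned, the list differed by -0.51 and -0.79 without them, beside -0.51 and -0.77 with all nuclei. Free RNA remained in the other nuclei, and its part in the result was not tested. Restricted to nuclei with at least 2000 detected genes, the mean difference was -1.06.

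**Figure D4:**
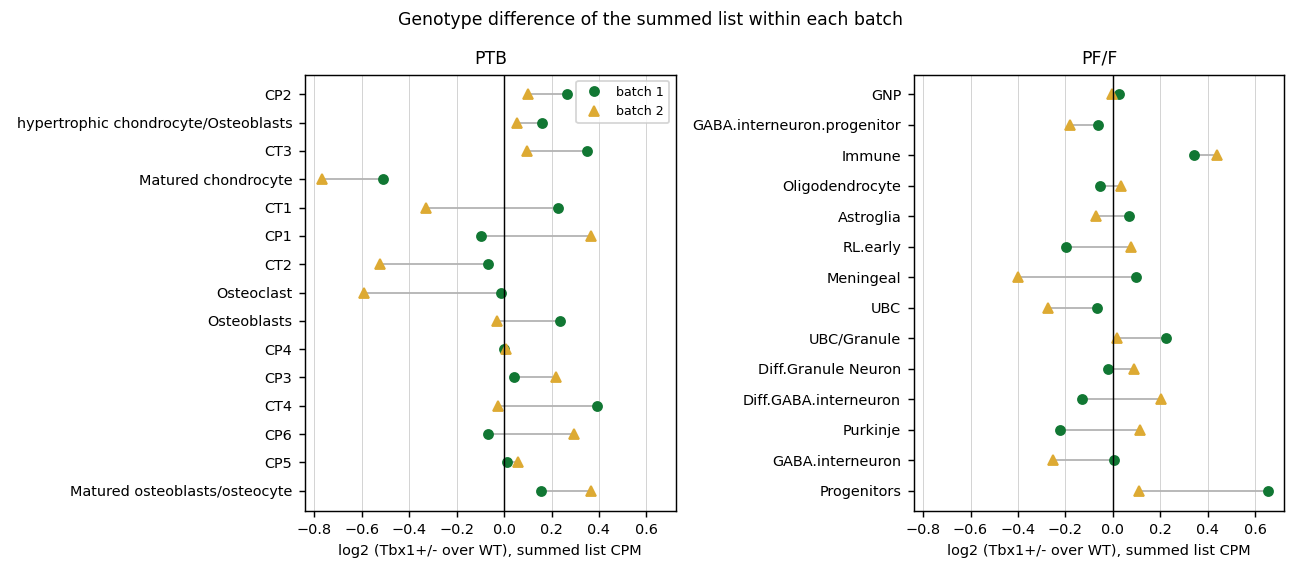
Log2 of the summed G2/M list in Tbx1+/- over WT (x axis) for each tested type, with 1 point per batch, so that 0 means no difference. In matured chondrocytes both points lie below 0 (-0.51 and -0.77), in immune cells both lie above it (0.34 and 0.44), and in GNPs both lie next to it (0.03 and -0.01).

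GNPs, with the most list UMIs of any type, had the narrowest range of member differences among the tested types. The list was 6433 and 5869 CPM in WT and 6553 and 5847 in Tbx1+/- (log2 0.03 and -0.01). The log2 changes of all 44 members lay between -0.10 and 0.18, with 11 higher in both batches (background 21.9%) and 10 lower. Cdk1 was 91.5 and 88.0 CPM in WT and 104 and 96.5 in Tbx1+/- (0.18, SE 0.14), Bub1 68.9 and 68.1 against 73.6 and 78.5 (0.17, SE 0.13) and the cyclin Ccnb2 50.2 and 54.8 against 55.7 and 55.4 (0.10, SE 0.13), each without overlap. Such a lack of overlap was no more common in the list than over all genes of the type. Of 44 members 4 were higher and 3 lower without overlap, beside 1419 and 1994 of 15361 genes. Top2a (818 and 654 against 802 and 640 CPM), Cenpf (295 and 254 against 285 and 251), Ccnb1 (76.6 and 69.7 against 78.6 and 66.7), Aurkb (71.8 and 70.5 against 81.2 and 64.6) and Mki67 (299 and 195 against 295 and 219) were lower in batch 2 in both genotypes and overlapped between genotypes. Other mitosis genes had a median of 0.08 in GNPs with 24 of 50 higher in both batches, and S phase genes 0.09 with 19 of 43 higher.

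Interneuron progenitors had 4578 and 4140 CPM in WT and 4383 and 3655 in Tbx1+/- (log2 -0.06 and -0.18), with 23 of 44 members lower in both batches (background 24.9%) and 2 higher. Without Tbx1+/- replicate 2 the mean difference was 0.01. The 3 astroglia markers summed to 757 and 714 CPM in WT and 964 and 903 in Tbx1+/- of this type (log2 0.35 and 0.34), while its own markers were 235 and 302 against 228 and 252, and the part of this shift in the result was not tested. Cenpf was 199 and 178 against 149 and 139 CPM (-0.39, SE 0.18), Ube2c 52.2 and 44.3 against 38.2 and 32.9 (-0.45, SE 0.21) and Psrc1 36.8 and 35.6 against 31.2 and 23.7 (-0.40, SE 0.23), while Cdk1 was 70.9 and 60.1 against 67.6 and 68.1 (0.05, SE 0.19). All 3 passenger complex members were lower in both batches and 8 of 14 in spindle and motors. The S phase genes had a median of 0.08 in this type, opposite in sign to the G2/M list (-0.12). Oligodendrocytes (3043 and 2287 CPM in WT, 2927 and 2343 in Tbx1+/-, log2 -0.06 and 0.03) had 12 of 43 tested members lower in both batches (background 26.0%) and 7 higher. Among them Ccnb1 was 34.4 and 28.4 against 23.7 and 19.8 CPM (-0.53, SE 0.25), Ndc80 32.3 and 27.6 against 43.7 and 42.6 (0.54, SE 0.23), and Aurkb 33.4 and 32.3 against 33.3 and 17.3 (-0.40, SE 0.30).

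Immune cells of the PF/F had 2661 and 2288 CPM in WT and 3371 and 3098 in Tbx1+/- (log2 0.34 and 0.44), without overlap, on 103 and 76 nuclei in WT and 73 and 133 in Tbx1+/-. Markers of other cell types also differed between genotypes. The 3 GNP markers summed to 54.3 and 50.3 CPM in WT and 117 and 84.8 in Tbx1+/- (log2 1.1 and 0.75), against 723 CPM in GNPs themselves, and the 3 markers of differentiated granule neurons to 133 and 155 against 224 and 216 (0.76 and 0.48). The 3 Purkinje markers summed to 320 and 116 CPM against 444 and 204 (0.47 and 0.81), and the 3 endothelial markers to 6.03 and 15.5 against 22.4 and 61.5 CPM. The 3 markers of GABAergic interneurons and their progenitors went the other way, at 66.4 and 69.7 against 53.8 and 31.8 CPM, as did the 2 of unipolar brush cells, at 24.1 and 23.2 against 0 and 6.36. None of these markers was at 0 in all libraries, and their part in the result was not tested. The immune markers were 1620 and 1092 against 1381 and 1478 CPM. Of 34 members that passed the filter 15 were higher in both batches (background 24.3%) and 4 lower. Of these 34, 7 reached the filter in both Tbx1+/- but not in both WT libraries and 1 the other way round, so this count is a description too, and under the limit on the mean 22 of 43 members were higher (background 23.6%) and 4 lower. Nusap1, which bundles spindle microtubules, was 45.3 and 50.3 CPM in WT and 98.6 and 99.7 in Tbx1+/- (1.05, SE 0.33), Top2a 172 and 178 against 314 and 246 (0.66, SE 0.27) and Ckap5 232 and 190 against 309 and 327 (0.58, SE 0.27). Mki67 did not share this pattern, at 118 and 92.9 against 108 and 95.4 CPM (-0.09, SE 0.30), nor did Cdk1, at 54.3 and 62.0 against 44.8 and 46.7 (-0.33, SE 0.37). Other mitosis genes had a median of 0.42 here and S phase genes -0.03. Hmmr, a spindle protein, was listed at 0 in WT of batch 2 and at 44.8 to 53.0 CPM in the other 3 libraries. Without WT replicate 1, where 0.347% of all genes of the type were called, Cenpf and Hmmr were called higher (adjusted p 0.0348 and 0.0499, edgeR), and the WT group was then 1 library with 0 Hmmr UMIs. Cenpf was 151 and 34.8 CPM in WT and 148 and 117 in Tbx1+/- (0.41, SE 0.47), and its change turned to -0.25 without WT replicate 2.

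Osteoclasts and CT2 also had lower lists in Tbx1+/-. Osteoclasts had 1074 and 1085 CPM in WT and 1066 and 720 in Tbx1+/- (log2 -0.01 and -0.59), with 22 of 42 tested members lower in both batches (background 22.3%). That difference rested on Tbx1+/- replicate 2, without which it was -0.02, and Cenpe, a kinetochore motor, was called lower without WT replicate 1 (adjusted p 0.0221, edgeR), a fit in which 1.48% of all genes of the type were called. CT2 had 21 of 39 tested members lower in both batches (background 24.0%) and a list difference of -0.07 and -0.52. Kif11 was called lower in differentiated interneurons without WT replicate 2 (adjusted p 0.0458, edgeR; background 0.0207%), the last of the member calls that appeared when a library was left out.

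**Figure D5:**
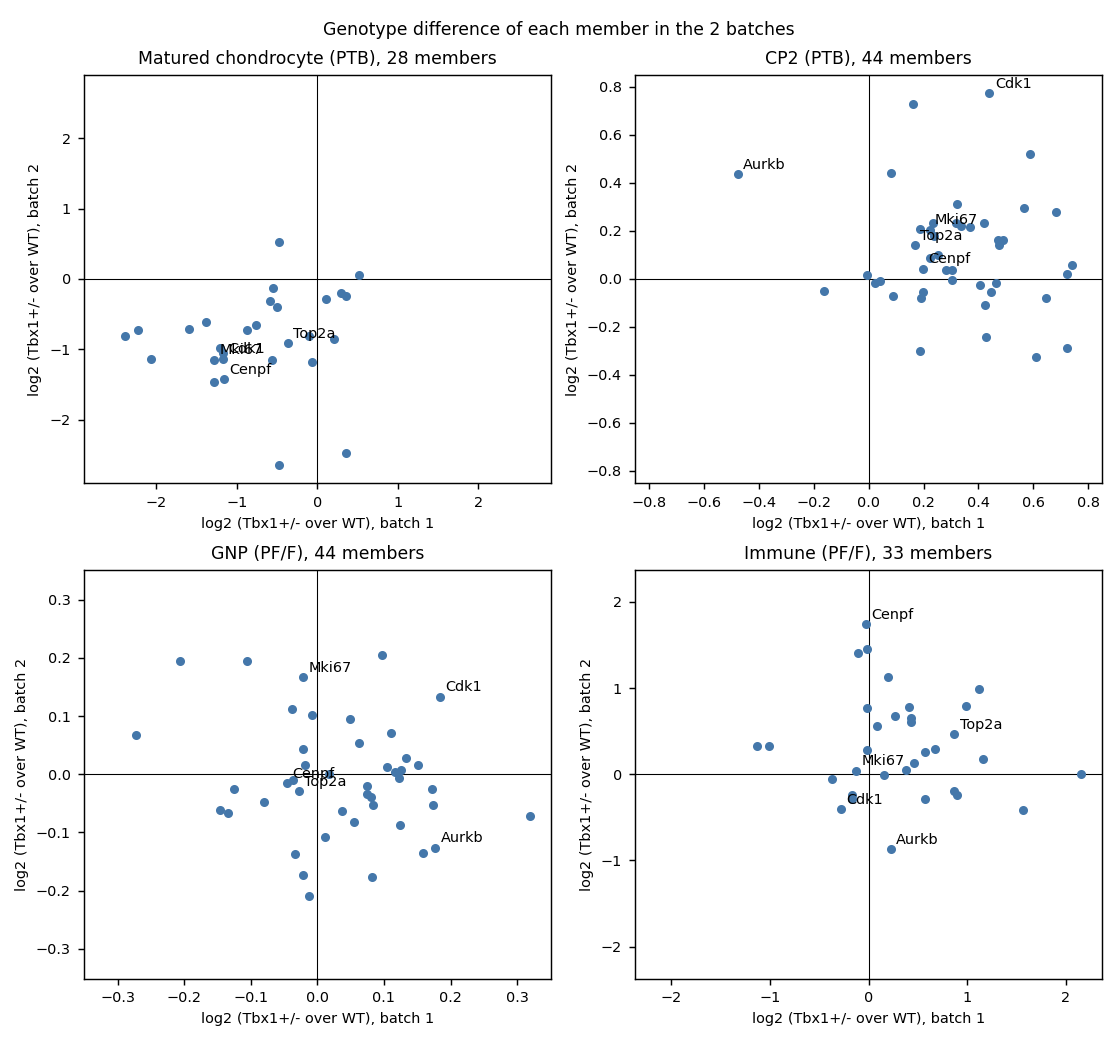
Each point is a member, with its log2 difference of Tbx1+/- over WT in batch 1 on the x axis and in batch 2 on the y axis, in matured chondrocytes (28 members), CP2 (44), GNPs (44) and immune cells (33, without Hmmr, which was listed at 0 UMIs in WT of batch 2); axis ranges differ between panels. In matured chondrocytes 21 points lie in the lower left quadrant, where 26.2% of all genes of the type do. In CP2 26 lie in the upper right (23.6% of all genes), while in GNPs 11 lie in the upper right (21.9%) and 10 in the lower left. The members of matured chondrocytes and immune cells passed a filter that was not blind to genotype, so their counts are descriptions and no support.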

How the data were processed

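The 8 single-nucleus libraries, 4 per tissue, were each made from a pool of 5 mice at P5.5. The deposited counts are raw UMIs per gene and nucleus, obtained by the authors through Cell Ranger 7.0.0 on mm10 with intronic reads included; they hold the filtered barcodes, before the authors' limits on genes and UMIs and before their correction for free RNA. Free RNA therefore remains in all values. Cell types, an annotation deposited per nucleus with library names, were taken as the authors gave them, after Louvain clustering, label transfer and manual curation. No doublet removal is described in the sources used here and none was run; leaving out the 8% of nuclei with the most UMIs served as an alternative. Gene positions came from GENCODE vM21 on GRCm38 and promoters from RefSeq on GRCm38.p6.

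UMIs were summed per library and type in Python 3.11.15 (pandas 2.3.3, numpy 2.4.6, scipy 1.17.1), and figures were drawn with matplotlib 3.10.9. Genotypes were compared in types with at least 20 nuclei in each library with edgeR 4.0.16 (R 4.3.3, limma 3.58.1), using its filter on low counts, TMM factors and the quasi-likelihood test, with p-values adjusted over all genes of a type. SE is the log2 change over the square root of F. DESeq2 1.42.0 was an alternative, as were RLE factors, no filter, each library left out, other sets of nuclei, other thinning depths and other member cuts. The study describes 2 batches of animals of each genotype, and the labels give only a replicate number, which was taken as the batch because the dates in the names of the deposited files are the same for both genotypes of a tissue and number. Samples of the same number deviated together from their group means (correlation 0.559 over 16180 genes in the PTB and 0.708 over 16535 in the PF/F), so the batch was fitted as a replicate block in 1 alternative. Ratios use a floor of 3 counts. Wilson intervals are at 95%. The scripts were tested on simulated data.

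The members, role groups and other gene lists were chosen with earlier results of these data known. Named were Mki67, Top2a, Ccnb1, Cdk1, Aurkb and Cenpf, and in the 4 highest tested types of each tissue the 3 members with the smallest p among those that differed the same way in both batches. Members called under any setting were named too, with the 5 members of highest and lowest ratio to the background type, the 5 other genes most like the list among genes reaching 5 CPM in a type, and Tbx1. G2e3, Cenpa, the zero of Hmmr and Ccnb2 in CT4 were named after their values were seen, as were osteoclasts and CT2 in the comparison of genotypes.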

Additional observations from a re-analysis of the deposited data

Results flagged for a closer look

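In the PTB the genotype difference of the summed G2/M list had opposite signs in matured chondrocytes, where it was negative in both batches, and in 3 other of the highest types, where it was positive in both. Measured as a difference of mean log2 differences, CP2 exceeded matured chondrocytes by 0.82, CT3 by 0.86 and the hypertrophic chondrocyte/osteoblast type by 0.74. In the PF/F immune cells, with positive differences in both batches, exceeded interneuron progenitors, with negative ones, by 0.51. None of these differences between types was tested, the libraries are the same for all types of a tissue, and the sign of CT3 turned in batch 2 without the nuclei of the most UMIs.

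Barcodes with at least 1000 genes that carry no annotation, and that enter no comparison above, had a summed list of 1251 CPM in the PTB (1278 and 1181 in WT, 1347 and 1199 in Tbx1+/-) and of 1891 CPM in the PF/F (2068 and 1683 in WT, 2237 and 1578 in Tbx1+/-). In each of the 4 libraries of a tissue these values lay above the background type, osteoclasts or Purkinje cells. The unannotated barcodes of the PTB numbered 4191 to 9183 per library, and no type is given for them in the annotation used here.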

How the results depend on the processing

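Among the tested types, which leave out pericytes and endothelial cells, the 4 highest of each tissue stayed the 4 highest without the 3 members with the most UMIs, without the 8% of nuclei with the most UMIs and in nuclei with at least 2000 genes. Of 680 values recomputed with all libraries kept, 496 stayed within the spread between libraries or on their side of the threshold. Of 40 recomputed genotype differences of the list 3 changed sign, in CT3 and in oligodendrocytes without the 8% of nuclei with the most UMIs and in oligodendrocytes with TMM-scaled library sizes, as did 5 of 40 when a library was left out, in interneuron progenitors, GNPs and oligodendrocytes. No member was called with RLE factors, no filter or DESeq2, while the number of calls over all genes was 1 at first, 127 without the filter, 2 with DESeq2 and 0 without the deepest 8% of nuclei. With the replicate block, which pairs libraries by batch, 2 members and 131 genes were called, and the block changed no other call of a member. Leaving out a library gave 0 to 5 member calls and 49 to 849 calls over all genes (849 without WT replicate 1, 305 without WT replicate 2, 96 without Tbx1+/- replicate 1, 49 without Tbx1+/- replicate 2); a group then had 1 library, assumed to vary like the other genotype. The cause was not tested.

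Without the 3 members with the most UMIs the list was 4651 CPM in GNPs, 363 in Purkinje cells, 1532.5 in CP2 and 712 in osteoclasts, and GNPs exceeded Purkinje cells 13.8-fold. In nuclei with at least 2000 genes it was 7340 in GNPs and 2258 in CP2, the ratio was 10.3, and the mean genotype difference was -1.06 in matured chondrocytes, -0.26 in interneuron progenitors, 0.0465 in GNPs and 0.78 in immune cells. Without the deepest 8% of nuclei it was -0.0038 in CT3, 0.32 in immune cells and 0.12 in oligodendrocytes. Against matured osteoblasts, chosen as background after the data were seen, CP2 stood 2.83-fold. The share of positive nuclei depended on its definition. With at least 3 members it was 84.5% in GNPs, 13.4% in Purkinje cells, 27.7% in CP2, 20.5% in osteoclasts and 14.0% in matured osteoblasts. With at least 8 it was 53.7%, 0.732%, 10.7%, 4.93% and 0.540%. Thinned to 1500 UMIs it was 56.8% in GNPs and 0.875% in matured osteoblasts, and at 3000 UMIs 84.4%, 3.55% and, in CP2, 21.1%. Without thinning it was 21.9% in Purkinje cells, 26.6% in CP2, 27.9% in osteoclasts and 14.3% in matured osteoblasts, so CP2 no longer exceeded osteoclasts.

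Leaving out each library in turn, the mean genotype difference ran from -0.96 to -0.32 in matured chondrocytes, from 0.28 to 0.50 in immune cells, from 0.0086 to 0.20 in the hypertrophic type, from -0.25 to 0.00974 in interneuron progenitors, from -0.0716 to 0.093 in GNPs and from -0.22 to 0.20 in oligodendrocytes. In CP2 it stayed between 0.11 and 0.25, in CT3 between 0.14 and 0.30, in CT2 between -0.46 and -0.13 and in osteoclasts between -0.58 and -0.02. With 2 libraries per genotype and 48 to 254 nuclei per library, matured chondrocytes limit what can be said of single members there.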
